A study of Danio rerio with 4 samples.

Results

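The secretory pathway carries newly made proteins from the ribosome into the endoplasmic reticulum (ER) and on through the Golgi to the cell surface. Here its genes were taken by name from RNA sequencing of zebrafish (Danio rerio) fins. A gene was a member if its name was sec followed by a digit, or srp followed by a digit, or if it began with ssr, spcs, kdelr, tmed, pdia, copa, copb, cope, copg, copz, arcn, sar1, tram or creb3l, or if it was calr, canx or xbp1. Of the 32434 genes in the count tables, 70 met this rule. SSRP1 and sec14l8 meet it by spelling and not by a role in this route, and SEC23IP binds a coat protein without being a coat subunit. These are described apart.

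A signal peptide on the growing protein is bound by the signal recognition particle, which brings the ribosome to a channel in the ER membrane, the Sec61 translocon. Inside the ER the protein is folded by chaperones and by disulfide isomerases, and it then leaves in vesicles coated by the COPII complex. Vesicles coated by the COPI complex return receptors and escaped ER proteins from the Golgi. Fibroblasts, cartilage cells and bone cells that make matrix depend on this route for collagen, and zebrafish that lack sec24d or sec23a, genes of the COPII coat, form defective craniofacial cartilage. A fin regrows after amputation from a blastema under a wound epidermis and lays down new matrix and bony rays.

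The regenerating group held 2 libraries, each from a pool of 10 fins taken 4 days after amputation, and the uninjured group held 2 libraries, each from a pool of 10 intact fins. All fish were wild type of the EK strain, and the amputated fins had been cut back to 50% of their length. The labels do not say how much of the stump went into a sample, so the part sampled may differ between the groups. RNA came from fin tissue, so each library mixes skin, mesenchyme, bone, vessel, nerve and blood. In such libraries more cells of a type cannot be told apart from more RNA per cell. The labels do not say that the pools came from separate groups of fish, and a p-value here covers only how far such pools spread, which may be technical in part.

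Regenerating libraries held 47858392 and 48247042 counts, and uninjured libraries held 43836649 and 34290386. The 70 genes took 0.765% and 0.767% of the reads in regenerating libraries, against 0.297% and 0.322% in uninjured libraries. Levels below are CPM, counts relative to the total of a library after TMM scaling, means are ± SD with n = 2 pools, and each log2 fold change is regenerating over uninjured ± its standard error. Gene length was not used, so levels are compared between libraries. Where genes are summed, given as shares or called low, gene length enters as well. A gene was called when its Benjamini-Hochberg adjusted p in edgeR's quasi-likelihood test, over 25594 genes tested, was under 0.05. Much of the transcriptome differed, with 59.6% of all genes tested called, 29.5% as higher and 30.0% as lower in regenerating fins. Scaling by library totals alone shifted the log2 fold changes of all genes by a median of 0.21 and gave 8941 genes called higher and 5524 called lower, against 7553 and 7689 under TMM.

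Most genes of the secretory pathway were more abundant in regenerating fins. Of the 69 members that could be tested, 54 rose (78.3%), 6 fell (8.70%) and 9 did not pass the test. A rise of at least 2-fold was found for 47 members, against 15.0% of all genes tested. Of these members 11 rose at least 4-fold, as did 1225 of the 25594 genes tested. The median member changed by 1.25 on the log2 scale, or 2.38-fold, and the median of all genes tested was -0.02. Without the 4 genes described apart, 50 of 65 members rose, 44 at least 2-fold and 10 at least 4-fold. Many low genes are among all genes tested, and among the 11590 genes with a mean of at least 10 CPM 36.6% rose and 16.2% rose at least 2-fold. The summed level of the members was 7314 and 6935 CPM in regenerating libraries, against 3411 and 3242 CPM in uninjured libraries. For 60 members each regenerating pool exceeded each uninjured pool, for 7 members each was lower, and the pools overlapped for XBP1 and SEC61G. Among the 25594 genes tested these counts were 10321, 10493 and 4780, so groups without overlap were common among all genes. The member left out of the test was tmed6, with 1 and 2 counts in regenerating libraries and 0 in each uninjured library.

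**Figure D1:**
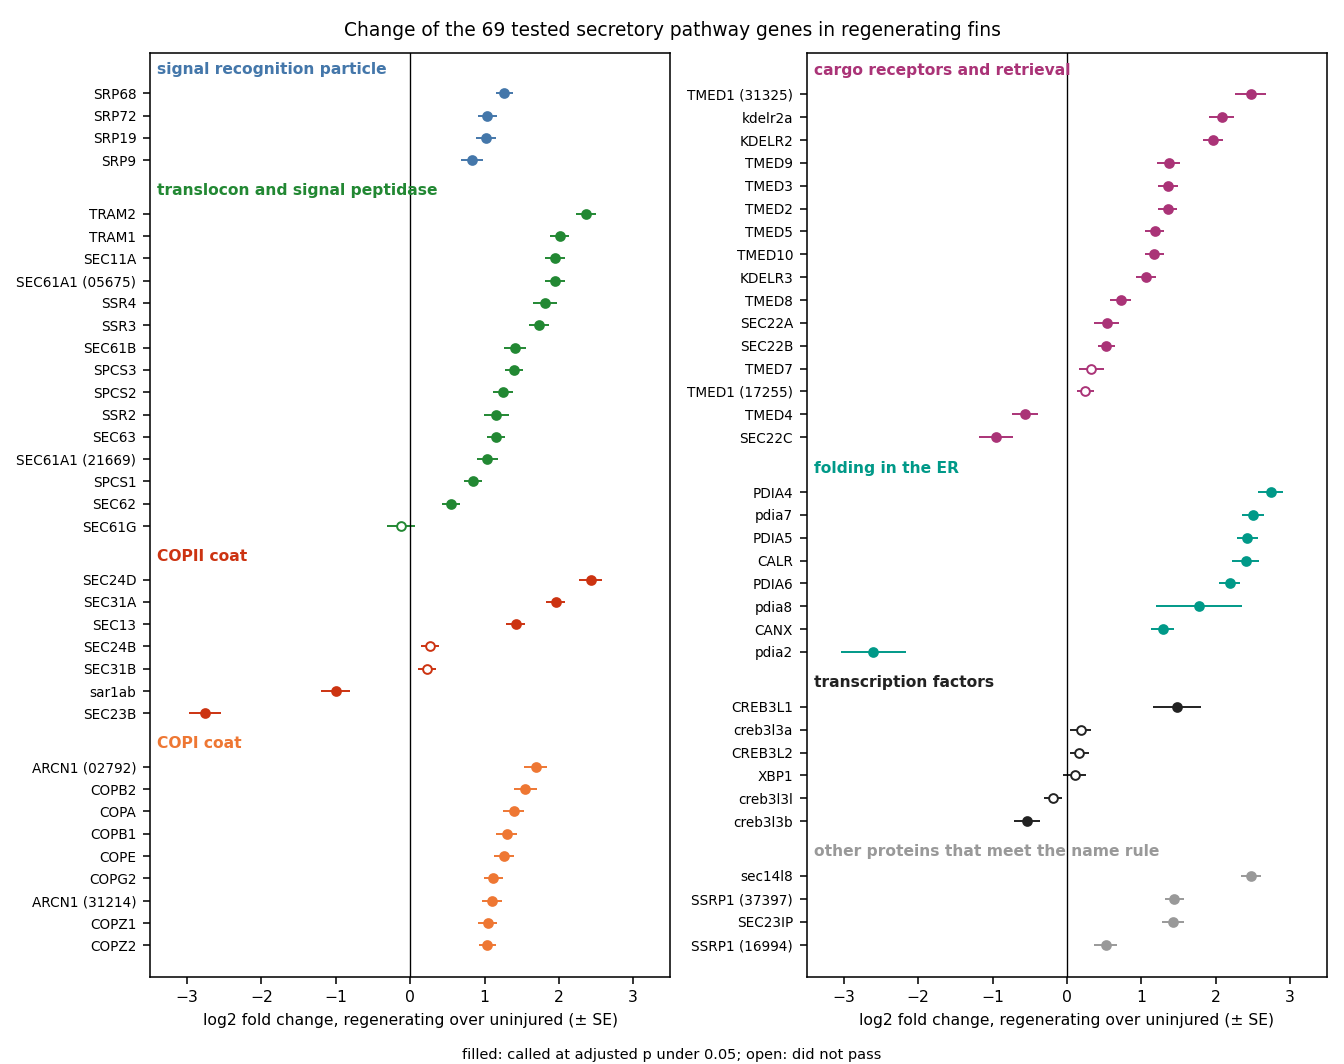
Log2 fold change (± SE) of each of the 69 tested members, regenerating over uninjured, grouped by role, with filled symbols for called genes and open symbols for genes that did not pass. COPI genes sit close together between 1.04 and 1.69, while COPII genes spread between -2.76 and 2.43.

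The roles differed in how alike their genes were. Every tested gene of the signal recognition particle (4 of 4) and of the COPI coat (9 of 9) rose, as did 14 of 15 genes of the translocon and signal peptidase. The COPII coat was mixed, with 3 genes that rose (42.9%), 2 that fell (28.6%) and 2 that did not pass. Among transcription factors 1 gene rose (16.7%), 1 fell (16.7%) and 4 did not pass. For comparison, 29.5% of all genes tested rose and 30.0% fell. The share of COPII genes that fell was thus near that of all genes, and both shares of the transcription factors were smaller. The standard deviation of the log2 fold change among genes was 0.23 for COPI and 1.81 for COPII. These are descriptions of the 2 groups of genes, and no test was made between roles. A gene without a symbol could not meet the name rule, so a role may lack some of its genes.

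Genes of the signal recognition particle, which binds the signal peptide and pauses translation, rose by a median of 1.03 on the log2 scale. SRP68 (ENSDARG00000020820), a subunit that forms a pair with SRP72, had 60.3 and 57.2 CPM in regenerating libraries, against 24.1 and 24.8 CPM in uninjured libraries. Its log2 fold change was 1.27 ± 0.12 (adjusted p = 5.48e-05). SRP72 had 68.97 and 62.7 CPM in regenerating libraries, against 34.3 and 29.8 CPM in uninjured libraries, a log2 fold change of 1.04 ± 0.13 (adjusted p = 0.000237). In both genes the regenerating pools stood well clear of the uninjured pools, and the pools of a group lay close together. SRP19, which helps the particle assemble on its RNA, had 20.9 and 24.2 CPM in regenerating libraries, against 10.7 and 11.5 CPM in uninjured libraries, and rose by 1.02 ± 0.14 (adjusted p = 0.000318). SRP9, of the domain that slows the ribosome, rose by 0.83 ± 0.14 (adjusted p = 0.00123).

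At the ER membrane, 12 of the 15 genes of the translocon and signal peptidase rose at least 2-fold, and 2 of these rose at least 4-fold. Of all genes tested 15.0% rose at least 2-fold, and 1225 of the 25594 rose at least 4-fold. TRAM2 and TRAM1, membrane proteins that lie beside the channel, stood at the top of this role. TRAM2 (ENSDARG00000030092) had 64.6 and 65.3 CPM in regenerating libraries, against 11.6 and 13.6 CPM in uninjured libraries, a log2 fold change of 2.36 ± 0.13 or 5.15-fold (adjusted p = 5.86e-06). TRAM1 had 98.6 and 92.7 CPM in regenerating libraries, against 22.9 and 24.7 CPM in uninjured libraries, a log2 fold change of 2.01 ± 0.12 (adjusted p = 8.86e-06). Neither gene had overlapping groups, like most genes tested, and every regenerating value was several times the uninjured ones.

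The channel itself is built from an alpha, a beta and a gamma subunit. Both genes named SEC61A1, the pore-forming alpha subunit, rose, by 1.94 ± 0.14 for ENSDARG00000005675 and by 1.04 ± 0.15 for ENSDARG00000021669 (adjusted p = 1.57e-05 and 0.000445). SEC61B, the beta subunit, rose by 1.41 ± 0.14 (adjusted p = 7.96e-05). SEC61G (ENSDARG00000018637), the gamma subunit, was the 1 gene of this role that did not pass, with a log2 fold change of -0.13 ± 0.19 (adjusted p = 0.577). Its levels were 207 and 230.5 CPM in regenerating libraries, against 281 and 197 CPM in uninjured libraries. The uninjured pools bracketed the regenerating ones, and the sign of SEC61G turned positive (0.10) with library totals alone and without uninjured pool 1 (0.15). SEC63 and SEC62, which help proteins enter after translation, rose by 1.16 ± 0.12 and 0.55 ± 0.12 (adjusted p = 0.000103 and 0.00393).

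SSR4, SSR3 and SSR2 encode subunits of the translocon-associated protein complex, which contacts chains as they enter. They rose by 1.81 ± 0.16, 1.73 ± 0.13 and 1.16 ± 0.16, all with adjusted p of 0.000414 or lower. SEC11A, the catalytic subunit of the signal peptidase, had 59.5 and 70.1 CPM in regenerating libraries, against 16.6 and 17.0 CPM in uninjured libraries, a 3.85-fold rise (log2 fold change 1.95 ± 0.13, adjusted p = 1.37e-05). Its partner subunits rose less, with log2 fold changes of 1.40 ± 0.12 for SPCS3, 1.25 ± 0.13 for SPCS2 and 0.84 ± 0.13 for SPCS1 (adjusted p of 0.000589 or lower). The differences between the subunits' changes were not tested.

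**Figure D2:**
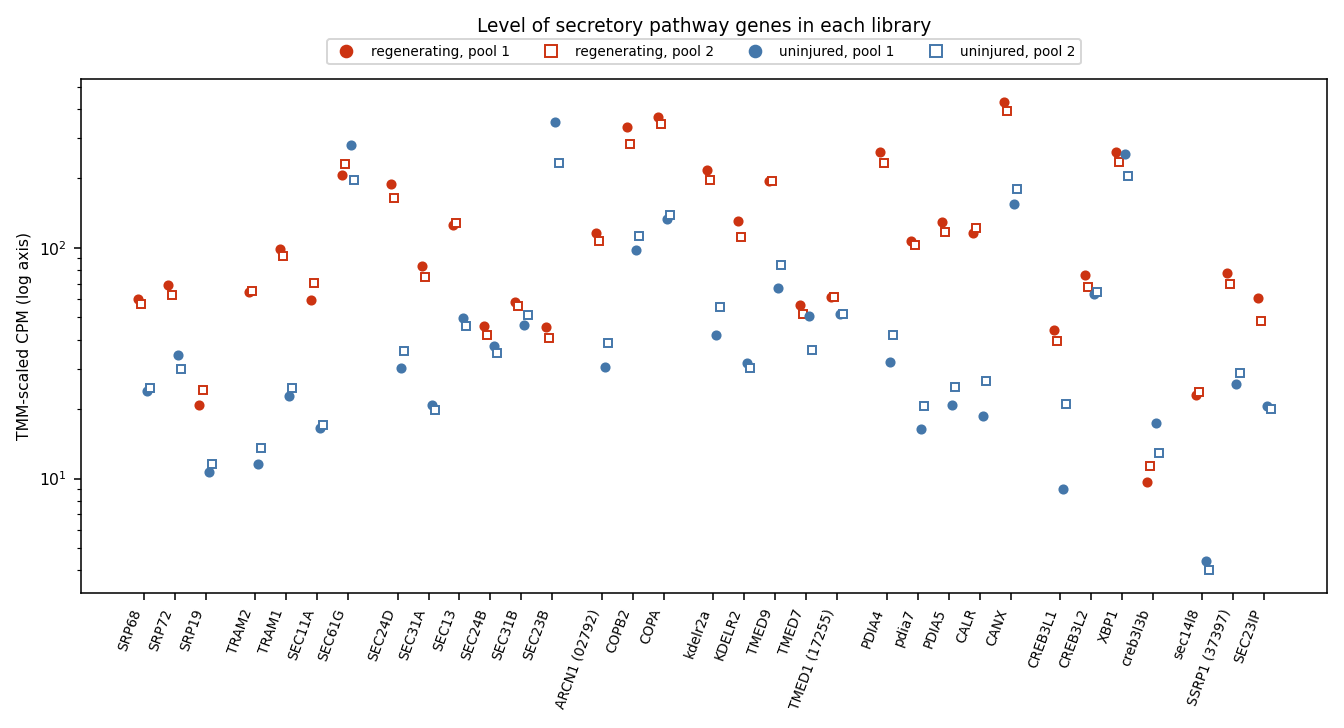
TMM-scaled CPM (log axis) of named members in each of the 4 libraries, with red symbols for regenerating pools and blue symbols for uninjured pools, and circles and squares for pools 1 and 2. Red lies above blue for most genes, the order is turned for SEC23B and creb3l3b, and SEC61G and XBP1 overlap.

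The COPII coat, which buds vesicles from the ER, held both the strongest fall among members and one of the larger rises. SEC24D (ENSDARG00000045946), a cargo adaptor of the inner coat, averaged 177 ± 17.9 CPM in regenerating fins and 32.9 ± 4.06 CPM in uninjured fins. The libraries held 190.0 and 165 CPM in regenerating fins, against 30.1 and 35.8 CPM in uninjured fins. The 5.38-fold rise (log2 fold change 2.43 ± 0.15, adjusted p = 9.03e-06) was many times the gap between pools. SEC24B, another adaptor of the same family, had 45.9 and 42.0 CPM in regenerating libraries, against 37.6 and 35.2 CPM in uninjured libraries, and its log2 fold change of 0.27 ± 0.12 did not pass (adjusted p = 0.0828).

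SEC23B (ENSDARG00000019360), the partner of SEC24 in the inner coat that stimulates the GTPase Sar1, moved the other way. It had 45.5 and 40.7 CPM in regenerating libraries, against 351 and 233 CPM in uninjured libraries. The uninjured pools differed from each other by more than the regenerating pools did, yet the groups were far apart. The fall was 6.77-fold (log2 fold change -2.76 ± 0.21, adjusted p = 2.2e-05), and leaving out each library in turn gave -2.99 to -2.43. The SEC23 paralog sec23a, the gene altered in the zebrafish crusher mutant, is not analysed here. A gene for the GTPase that starts coat assembly, sar1ab, also fell, with 126 and 189 counts in regenerating libraries, against 222 and 216 counts in uninjured libraries. Its log2 fold change was -1.002 ± 0.20 (adjusted p = 0.00274), on a level of 2.52 to 6.34 CPM.

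The outer coat is a cage of SEC13 and SEC31. SEC31A had 83.2 and 74.7 CPM in regenerating libraries, against 20.9 and 19.8 CPM in uninjured libraries, a 3.88-fold rise (log2 fold change 1.96 ± 0.13, adjusted p = 1.05e-05). SEC13, which also serves the nuclear pore, had 126 and 128 CPM in regenerating libraries, against 49.6 and 45.7 CPM in uninjured libraries, a 2.67-fold rise (log2 fold change 1.42 ± 0.12, adjusted p = 4.04e-05). SEC31B had 58.2 and 55.8 CPM in regenerating libraries, against 46.2 and 51.0 CPM in uninjured libraries, and did not pass (log2 fold change 0.23 ± 0.12, adjusted p = 0.13). With library totals alone both SEC24B and SEC31B were called higher (adjusted p = 0.0163 and 0.0375), which gave 5 COPII genes that rose in place of 3.

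The COPI coat is assembled from 7 kinds of subunit, named alpha to zeta with a beta-prime, and every subunit had a gene among the members. Each of its 9 genes rose at least 2-fold in the main fit, against 15.0% of all genes tested, and none rose 4-fold. The median log2 fold change was 1.26. ARCN1 (ENSDARG00000002792), a delta subunit, had 116 and 108 CPM in regenerating libraries, against 30.5 and 38.9 CPM in uninjured libraries, a log2 fold change of 1.69 ± 0.15 (adjusted p = 4.54e-05). COPB2, the beta-prime subunit, had 334 and 283 CPM in regenerating libraries, against 98.0 and 113 CPM in uninjured libraries, a log2 fold change of 1.55 ± 0.16 (adjusted p = 7.81e-05). COPA, the alpha subunit, had 369.6 and 343 CPM in regenerating libraries, against 133 and 139 CPM in uninjured libraries, a log2 fold change of 1.39 ± 0.14 (adjusted p = 8.02e-05). In each of the 3 genes every regenerating value was well above the uninjured ones.

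The other COPI genes lay in a narrow band. COPB1 (beta) rose by 1.30 ± 0.14, COPE (epsilon) by 1.26 ± 0.13 and COPG2 (gamma) by 1.12 ± 0.13. The second ARCN1 gene (ENSDARG00000031214) rose by 1.10 ± 0.14. COPZ1 and COPZ2, a pair of genes for zeta subunits, had log2 fold changes of 1.04 ± 0.13 and 1.04 ± 0.12. Over the alternative fits the lowest values were 0.93 for both and 0.98 for the second ARCN1 gene, which are short of 2-fold. The largest adjusted p of the role was 0.000207. The summed level of the role was 1440 and 1307 CPM in regenerating libraries, against 517 and 565 CPM in uninjured libraries.

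Cargo receptors and retrieval factors mostly rose, with 12 of 16 tested genes called higher (75%), 9 of them at least 2-fold, and 2 called lower (12.5%). Of all genes tested 29.5% rose, 15.0% rose at least 2-fold and 30.0% fell. KDEL receptors, which bind escaped ER proteins in the Golgi and return them in COPI vesicles, all rose. The gene kdelr2a (ENSDARG00000005254) had 217 and 196 CPM in regenerating libraries, against 42.0 and 55.5 CPM in uninjured libraries, a 4.24-fold rise (log2 fold change 2.08 ± 0.17, adjusted p = 2.72e-05). KDELR2 (ENSDARG00000037361) had 131 and 112 CPM in regenerating libraries, against 31.8 and 30.2 CPM in uninjured libraries, a 3.91-fold rise (log2 fold change 1.97 ± 0.14, adjusted p = 1.4e-05). KDELR3 rose 2.09-fold (log2 fold change 1.07 ± 0.13, adjusted p = 0.000213). All 3 receptors had groups that did not overlap, which held for most genes tested.

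The TMED genes encode p24 proteins, membrane proteins of early secretory vesicles that bind coat subunits and sort cargo. TMED9, TMED3, TMED2, TMED5 and TMED10 rose by 1.18 to 1.37 on the log2 scale, and TMED8 rose by 0.72 ± 0.14 (adjusted p = 0.00246). TMED9 had 194 and 196 CPM in regenerating libraries, against 66.7 and 84.5 CPM in uninjured libraries (adjusted p = 0.000123). The largest change of the family was that of a low gene named TMED1 (ENSDARG00000031325), with 214 and 239 counts in regenerating libraries, against 32 and 25 counts in uninjured libraries. It rose by 2.47 ± 0.20 (adjusted p = 3.1e-05). A second gene with that name (ENSDARG00000017255) had 61.5 and 61.0 CPM in regenerating libraries, against 51.7 and 51.8 CPM in uninjured libraries, and did not pass (log2 fold change 0.24 ± 0.11, adjusted p = 0.0996). TMED7 did not pass either (log2 fold change 0.32 ± 0.17, adjusted p = 0.128), but it passed with library totals alone (0.55, adjusted p = 0.0115). Without uninjured pool 1 the log2 fold change of TMED7 was 0.59. With library totals alone the TMED1 gene ENSDARG00000017255 passed as well (0.45, adjusted p = 0.0246). TMED4 was low and had a log2 fold change of -0.56 ± 0.18 (adjusted p = 0.0234), a call that was lost with library totals alone, with DESeq2 and without regenerating pool 1, regenerating pool 2 or uninjured pool 2 (adjusted p of 0.0675 to 0.199).

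SEC22 proteins are SNAREs or SNARE-like proteins of the ER and Golgi, of which SEC22B takes part in vesicle fusion. SEC22B rose by 0.53 ± 0.12 and SEC22A by 0.53 ± 0.17 (adjusted p = 0.005 and 0.025), both well short of 2-fold. The call of SEC22A was lost without regenerating pool 1, regenerating pool 2 or uninjured pool 2 and with a minimum of 10 CPM (adjusted p of 0.058 to 0.0804). SEC22C fell, with 2.90 and 2.70 CPM in regenerating libraries, against 6.64 and 4.17 CPM in uninjured libraries (log2 fold change -0.95 ± 0.23, adjusted p = 0.00774). The uninjured pools were apart, and without uninjured pool 1 the log2 fold change of SEC22C was -0.57.

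Folding enzymes of the ER had the largest median change of the roles, with a log2 fold change of 2.29 over 8 genes, or 4.90-fold. Their summed level was 1188 and 1109 CPM in regenerating libraries, against 273 and 329 CPM in uninjured libraries. PDIA4 (ENSDARG00000018491), a protein disulfide isomerase, averaged 247 ± 17.7 CPM in regenerating fins and 37.0 ± 6.94 CPM in uninjured fins. Its libraries held 259 and 234 CPM in regenerating fins, against 32.1 and 41.9 CPM in uninjured fins. The 6.68-fold change (log2 fold change 2.74 ± 0.17, adjusted p = 8.87e-06) was the largest rise among members. PDIA5, of the same enzyme family, had 129 and 117 CPM in regenerating libraries, against 20.8 and 25.0 CPM in uninjured libraries, and rose by 2.43 ± 0.15 (adjusted p = 7.7e-06). PDIA6, also of that family, rose by 2.19 ± 0.14 (adjusted p = 1e-05). The gene named pdia7 had 107 and 103 CPM in regenerating libraries, against 16.4 and 20.7 CPM in uninjured libraries, a 5.67-fold rise (log2 fold change 2.50 ± 0.15, adjusted p = 7.53e-06).

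Calreticulin and calnexin are lectin chaperones that hold newly glycosylated proteins until they are folded. CALR (ENSDARG00000076290), the soluble one, had 116 and 122 CPM in regenerating libraries, against 18.6 and 26.4 CPM in uninjured libraries, a 5.28-fold rise (log2 fold change 2.40 ± 0.18, adjusted p = 1.98e-05). CANX (ENSDARG00000037488), the membrane-bound one, had 428 and 392 CPM in regenerating libraries, against 156 and 180.3 CPM in uninjured libraries, a 2.44-fold rise (log2 fold change 1.29 ± 0.15, adjusted p = 0.00018). Both rose without overlap between the groups, which most genes tested also lacked, and the difference between their changes was not tested.

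The remaining pair of folding genes was nearly silent. The gene pdia2, an isomerase of the pancreas in mammals, had 4 and 4 counts in regenerating libraries, against 19 and 16 counts in uninjured libraries, and fell by 2.60 ± 0.44 (adjusted p = 0.00113). The gene pdia8 had 14 and 36 counts in regenerating libraries, against 6 and 4 counts in uninjured libraries (log2 fold change 1.78 ± 0.58, adjusted p = 0.0271). Without regenerating pool 2 the log2 fold change of pdia8 was 1.002, and its call was lost there, without either uninjured pool and with DESeq2 (adjusted p of 0.0722 to 0.241).

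**Figure D3:**
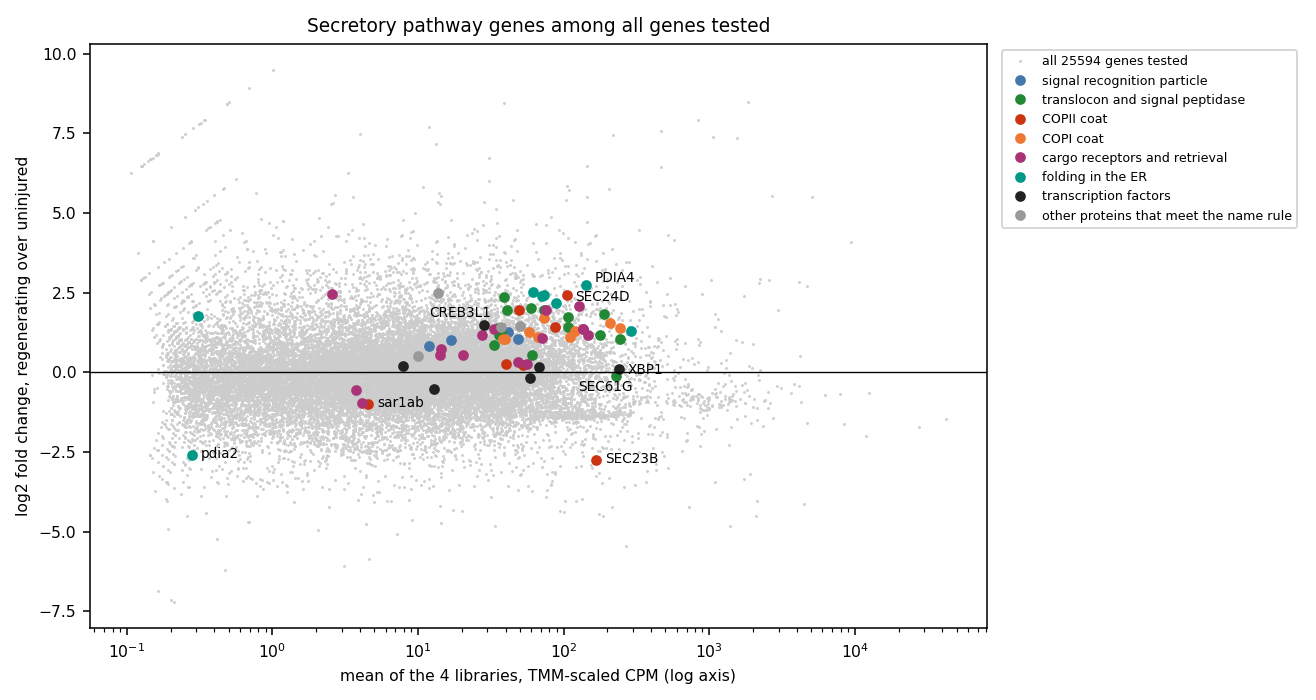
Log2 fold change of each member, regenerating over uninjured, against its mean TMM-scaled CPM over the 4 libraries (log axis), colored by role, with all 25594 genes tested in gray. Members with a mean of at least 5 CPM lie mostly above 0. Under 5 CPM, pdia8 and a TMED1 gene lie above 0, and pdia2, sar1ab, SEC22C and TMED4 lie below it. SEC23B and pdia2 lie farthest below 0.

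Of the 6 regulators of the pathway among the members, CREB3L1 rose. XBP1 and the CREB3-like factors are transcription factors that raise secretory genes in mammals and fish. XBP1 is switched on by splicing of its mRNA and the CREB3-like factors by being cut from the membrane, and counts per gene read neither step. XBP1 (ENSDARG00000035622) had 259.5 and 237 CPM in regenerating libraries, against 255 and 206 CPM in uninjured libraries. The groups overlapped and its log2 fold change of 0.10 ± 0.16 did not pass (adjusted p = 0.589). CREB3L2 (ENSDARG00000063563), needed in zebrafish for cartilage matrix secretion, had 76.0 and 67.6 CPM in regenerating libraries, against 63.0 and 64.7 CPM in uninjured libraries, and did not pass (log2 fold change 0.17 ± 0.12, adjusted p = 0.268).

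CREB3L1 (ENSDARG00000015793), known in mouse for collagen production by osteoblasts, was the transcription factor that rose. It had 44.3 and 39.4 CPM in regenerating libraries, against 8.999 and 21.1 CPM in uninjured libraries. The log2 fold change was 1.48 ± 0.32, or 2.79-fold (adjusted p = 0.00447). The uninjured pools differed more than 2-fold from each other. The log2 fold change was 0.99 without uninjured pool 1 and 2.25 without uninjured pool 2. A fit with 1 uninjured pool cannot measure the spread between uninjured pools, so only these sizes are given. Of the CREB3L3 genes, which belong to liver and gut in mammals, creb3l3a and creb3l3l did not pass (log2 fold changes of 0.19 ± 0.14 and -0.19 ± 0.12, adjusted p = 0.28 and 0.203). The third, creb3l3b, fell by 0.53 ± 0.17 (adjusted p = 0.0269), with 9.67 and 11.3 CPM in regenerating libraries, against 17.4 and 12.9 CPM in uninjured libraries. Its call was lost without regenerating pool 1, without uninjured pool 1 (-0.30) and with library totals alone (-0.31).

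Some secretory genes occur as pairs or families whose members changed to different degrees, and their shares of the family's reads show this within a library. SEC24D took 80.5% and 79.7% of the SEC24B and SEC24D reads in regenerating libraries, against 44.4% and 50.5% in uninjured libraries. SEC31A took 58.9% and 57.2% of the SEC31 reads in regenerating libraries, against 31.1% and 28.0% in uninjured libraries. The SEC61A1 gene with fewer reads (ENSDARG00000005675) took 26.5% and 26.2% of the SEC61A1 reads in regenerating libraries, against 14.4% and 17.8% in uninjured libraries. In each of these families the order of the groups was the same in every pool.

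Among KDEL receptors, kdelr2a took 48.6% and 48.8% of reads in regenerating libraries, against 36.2% and 41.0% in uninjured libraries, and KDELR3 took 22.1% and 23.5% in regenerating libraries, against 36.5% and 36.7% in uninjured libraries. CREB3L1 took 22.7% and 21.9% of the CREB3-like reads in regenerating libraries, against 5.67% and 12.5% in uninjured libraries. COPZ1 and COPZ2 showed no such shift, with a COPZ1 share of 48.7% and 49.3% in regenerating libraries, against 46.3% and 51.6% in uninjured libraries. A share of reads is not a share of transcripts, since gene length enters it, and how reads shared by paralogs were counted is not given in the sources used here. With 2 pools against 2, an exact permutation test cannot give a two-sided p below 0.333, so these shares are descriptions.

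**Figure D4:**
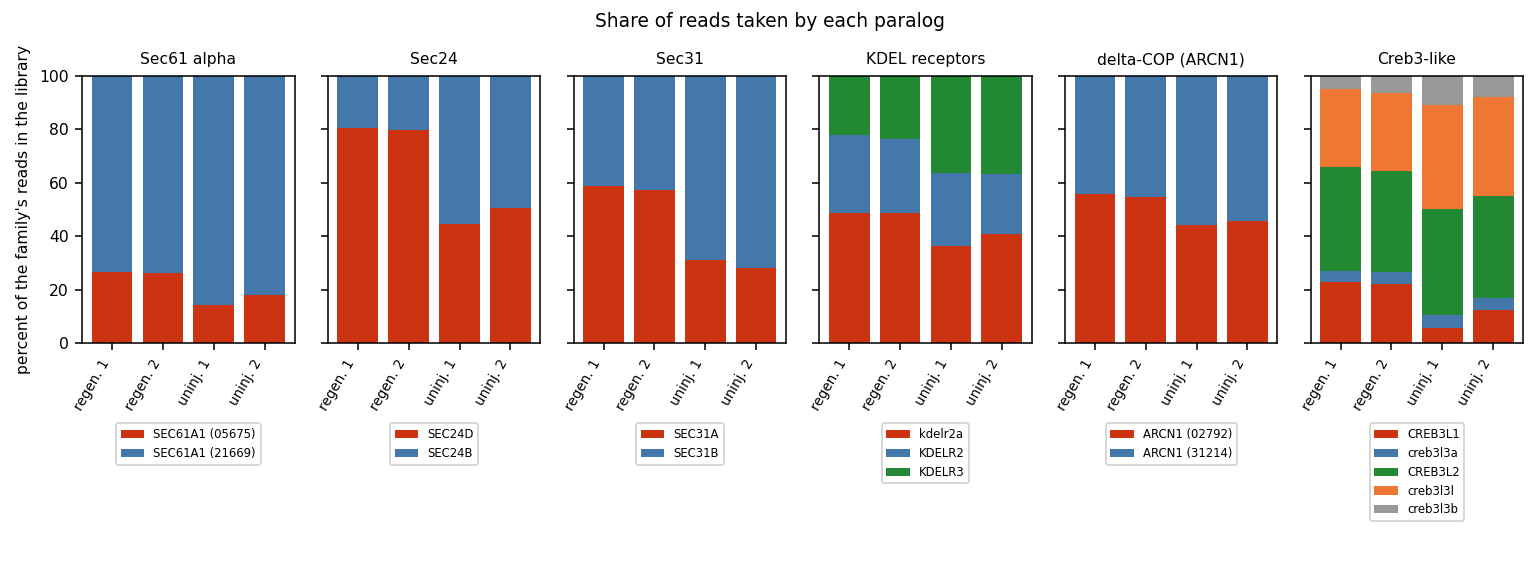
Percent of a family's reads taken by each of its genes in the 4 libraries, for 6 families, with regenerating pools on the left of each panel. The shares of SEC24D and SEC31A stand higher in both regenerating pools than in either uninjured pool.

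The genes set apart from the roles, SSRP1 (2 genes), sec14l8 and SEC23IP, all rose. The gene sec14l8, of a family of lipid-binding proteins, had 23.1 and 23.7 CPM in regenerating libraries, against 4.41 and 4.02 CPM in uninjured libraries, a 5.56-fold rise (log2 fold change 2.47 ± 0.14, adjusted p = 5.35e-06). SSRP1 is a subunit of the FACT histone chaperone and works in the nucleus. Its gene ENSDARG00000037397 had 77.8 and 69.9 CPM in regenerating libraries, against 25.6 and 28.7 CPM in uninjured libraries, and rose by 1.44 ± 0.13 (adjusted p = 4.64e-05). The SSRP1 gene ENSDARG00000016994 rose by 0.52 ± 0.16 (adjusted p = 0.0215), a call lost without regenerating pool 1 and without uninjured pool 1. SEC23IP, which binds the COPII protein Sec23 at ER exit sites and is not counted among the coat genes above, had 60.8 and 48.5 CPM in regenerating libraries, against 20.7 and 19.99 CPM in uninjured libraries, and rose by 1.42 ± 0.14 (adjusted p = 7.92e-05). Without these genes the median log2 fold change of the other 65 tested members was 1.18, with 50 higher and 6 lower.

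Genes of the pathway outside the name rule were counted in the same way. Of all genes tested 29.5% rose and 15.0% rose at least 2-fold, and 1225 of the 25594 rose at least 4-fold. All 9 tested genes of the oligosaccharyltransferase, which attaches sugar chains to proteins entering the ER, rose, with a median log2 fold change of 1.43. RPN2, a subunit of it, had 306 and 269.8 CPM in regenerating libraries, against 64.8 and 76.6 CPM in uninjured libraries (log2 fold change 2.02 ± 0.15, adjusted p = 2.14e-05). DDOST, another subunit, rose by 1.92 ± 0.17 (adjusted p = 3.97e-05).

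Of 20 ER chaperones and redox enzymes 17 rose, 12 of them at least 4-fold, and 3 did not pass. The median log2 fold change was 2.56. FKBP9, a prolyl isomerase of the ER, had 639 and 617 CPM in regenerating libraries, against 27.3 and 29.4 CPM in uninjured libraries, a 22.1-fold rise (log2 fold change 4.47 ± 0.17, adjusted p = 1.76e-06). FKBP10, a prolyl isomerase that acts on collagen, rose by 3.37 ± 0.17 (adjusted p = 3.62e-06). HSP90B1, the ER member of the HSP90 chaperones, had 695 and 592 CPM in regenerating libraries, against 117 and 157 CPM in uninjured libraries (log2 fold change 2.23 ± 0.20, adjusted p = 4.23e-05). The gene of the ER chaperone BiP is not analysed here.

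The listed genes of the unfolded protein response and ER-associated degradation, which sense and clear misfolded proteins, had a smaller median change. This list leaves out the ER chaperones and redox enzymes, which were counted apart above with a median log2 fold change of 2.56. Its median therefore does not describe them. Of 18 genes 8 rose (44.4%), against 29.5% of all genes tested and 36.6% of those with a mean of at least 10 CPM. Rises of at least 2-fold were found for 2 of the 18, a smaller share than the 15.0% of all genes tested. Another 2 fell and 8 did not pass. The median log2 fold change was 0.32. The rises led with os9, a lectin of degradation, and DERL2, of the membrane channel for it, at 1.22 ± 0.12 and 1.13 ± 0.15 (adjusted p = 7.57e-05 and 0.000259). The genes that fell, named after their values were seen, were DDIT3, a stress transcription factor, with 18.6 and 21.5 CPM in regenerating libraries, against 41.5 and 35.7 CPM in uninjured libraries (log2 fold change -0.94 ± 0.14, adjusted p = 0.000523), and atf4b. The gene atf4b, a transcription factor of the same stress branch, had a log2 fold change of -0.44 ± 0.14 (adjusted p = 0.023) and lost its call with library totals alone and without either regenerating pool. The sensor genes ern1 and EIF2AK3 did not pass (log2 fold changes of -0.64 ± 0.27 and 0.15 ± 0.12, adjusted p = 0.076 and 0.304), and the sensor gene atf6 rose by 0.62 ± 0.12 (adjusted p = 0.00276). These 3 were also named after their values were seen. Without regenerating pool 1 the count of genes that rose was 5, and without regenerating pool 2 the count that fell was 1.

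At ER exit sites, 14 of 15 genes outside the name rule rose, against 29.5% of all genes tested, with a median log2 fold change of 1.40. LMAN1, a lectin that ferries glycoproteins out of the ER, had 112 and 93.0 CPM in regenerating libraries, against 8.999 and 10.9 CPM in uninjured libraries, and rose by 3.36 ± 0.16 (adjusted p = 3.01e-06). SURF4, a cargo receptor, rose by 2.18 ± 0.17 (adjusted p = 2.41e-05). The exception, named after its value was seen, was ERGIC3, a membrane protein that cycles between ER and Golgi, with 90.9 and 91.4 CPM in regenerating libraries, against 241 and 173 CPM in uninjured libraries (log2 fold change -1.18 ± 0.17, adjusted p = 0.000533).

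Further along lie vesicle tethering and fusion. Of 29 genes 20 rose (69%), against 29.5% of all genes tested, 2 fell and 7 did not pass. Rises of at least 2-fold were found for 3 of the 29, a smaller share than the 15.0% of all genes tested. The median log2 fold change of the 29 genes was 0.52. The larger rises were those of bet1, a SNARE, and GORASP2, a Golgi stacking protein, at 1.33 ± 0.15 and 1.11 ± 0.14 (adjusted p = 0.000124 and 0.0002). The genes that fell, likewise named after their values were seen, were both genes of RAB6B, a GTPase of Golgi traffic, which fell by 1.11 ± 0.16 for ENSDARG00000031343 and fell by 0.81 ± 0.13 for ENSDARG00000034522 on the log2 scale (adjusted p = 0.000434 and 0.000778). Of 11 genes of the Arf cycle, which recruits the COPI coat, 10 rose and 1 did not pass, at a median of 1.19 on the log2 scale. The GTPase genes arf4a and ARF5 rose by 2.28 ± 0.16 and 1.87 ± 0.14 (adjusted p = 1.75e-05 and 1.79e-05).

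Collagens are a main cargo of the route. All 12 listed collagen genes, of the fibrillar and other types, rose, against 29.5% of all genes tested, with a median log2 fold change of 2.54. Their summed level was 58466 and 48526 CPM in regenerating libraries, against 6082 and 6089 CPM in uninjured libraries. COL10A1, a collagen of cartilage and of fish bone cells, had 10705 and 9220.4 CPM in regenerating libraries, against 197 and 247 CPM in uninjured libraries (log2 fold change 5.49 ± 0.39, adjusted p = 1.69e-05). The gene col1a1a, a chain of type I collagen, rose by 4.08 ± 0.44 (adjusted p = 0.000112). The list does not hold every collagen. The collagen gene col17a1a, counted below as an epidermal marker and named after its value was seen, fell (log2 fold change -2.64 ± 0.25, adjusted p = 6.39e-05).

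**Figure D5:**
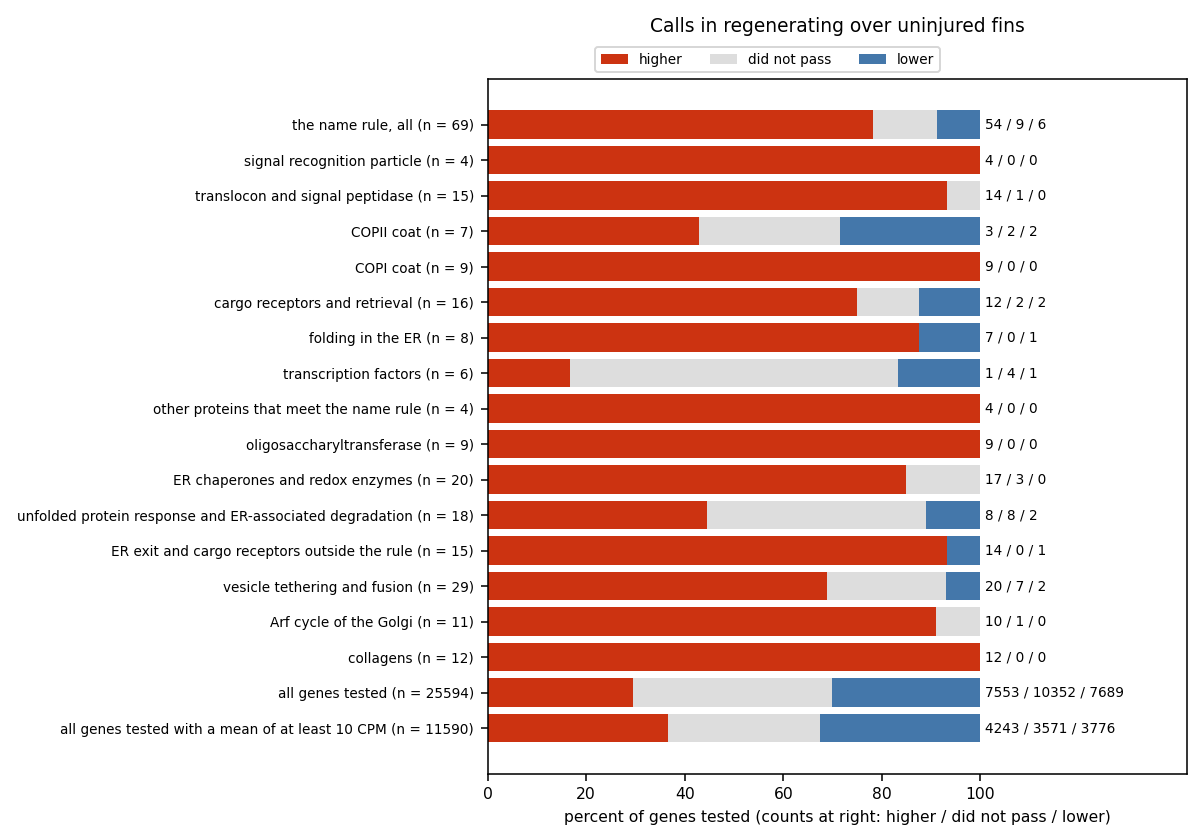
Percent of tested genes called higher, not passing and called lower in regenerating over uninjured fins, for the members, each role, 7 other lists and all genes tested, with the counts at right. COPI, the signal recognition particle, the oligosaccharyltransferase and the 12 listed collagens are called higher in full. So are the 4 other proteins that meet the name rule. All genes tested are called higher and lower about equally.

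Markers of the cell types in a fin were counted in the same way, beside 29.5% of all genes tested called higher and 30.0% called lower. Of 11 osteoblast markers, 9 rose, 1 fell and 1 did not pass, and their summed level was 718 and 672 CPM in regenerating libraries, against 214 and 232 CPM in uninjured libraries. Of 12 epidermal markers, 9 fell, 2 did not pass and 1 rose, a call lost without either regenerating pool. The epidermal sum was 30525 and 27173 CPM in regenerating libraries, against 80502 and 66759 CPM in uninjured libraries. Most of this sum was krt5, a keratin that did not pass the test (adjusted p = 0.108), and the other 11 markers summed to 6191 and 6292 CPM in regenerating libraries, against 11393 and 12147 CPM in uninjured libraries. Of 9 markers of mucous and gland-like cells, which are also secretory, 6 fell and 3 did not pass, with a sum of 212 and 152 CPM in regenerating libraries, against 438 and 562 CPM in uninjured libraries. Of 7 markers of plasma and B cells 1 rose (14.3%), 2 fell (28.6%) and 4 did not pass, shares no larger than those of all genes tested. The sum of these markers was 62.1 and 65.9 CPM in regenerating libraries, against 39.3 and 46.8 CPM in uninjured libraries. The gene that rose, named after its value was seen, was PRDM1, a factor also used outside B cells, with 46.2 and 46.9 CPM in regenerating libraries, against 4.49 and 3.99 CPM in uninjured libraries. Without PRDM1 the order of the groups turned, and the other 6 markers summed to 15.9 and 18.9 CPM in regenerating libraries, against 34.8 and 42.8 CPM in uninjured libraries. Of 12 genes that react to how tissue is handled (immediate early and heat shock genes) 10 fell, 1 rose and 1 did not pass, with a sum of 547 and 374 CPM in regenerating libraries, against 1094 and 862 CPM in uninjured libraries. The part of these shifts in the results on secretory genes was not tested.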

How the data were processed

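RNA was measured in 4 libraries, 2 of regenerating and 2 of uninjured fins, as single-end Illumina reads. The authors deposited raw counts of reads per Ensembl gene, which are not normalized. The submitters' processing notes name CASAVA, TopHat, edgeR and the build Zv9, and TopHat's accepted alignments were what was counted, per the file headers. Which program, annotation and strand setting made the counts is not given in the sources used here, so near-identical paralogs and overlapping or antisense genes may share reads and are uncertain.

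A table of Ensembl IDs and symbols named 20769 genes (64%), and a gene with no symbol could not meet the name rule. Symbols stand as that table gives them, many in capitals. Low genes were removed with filterByExpr at a minimum count of 10 and a total of 15, which left 25594 genes. Regenerating fins were tested against uninjured fins by edgeR's quasi-likelihood method in its non-legacy form, after TMM scaling, with no covariate, and p-values were adjusted by Benjamini-Hochberg over all genes tested at a threshold of 0.05. The standard error is the log2 fold change over the square root of the F statistic, and the biological coefficient of variation was 0.127. A floor of 3 counts equals 0.0562 to 0.0881 CPM, depending on the library, for counting error alone. Pools within a group differed beyond sampling noise (a chi-square of 17.6 per degree of freedom in the regenerating pair and 37.1 in the uninjured pair), and none was treated as a repeat of another.

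The members, their roles and all lists were chosen with earlier results of these data known. Values in every library are given for SEC24D, CREB3L1, CREB3L2, XBP1, CALR and CANX and, in each role, for the 3 called genes with the largest change in the main direction (mean of at least 5 CPM, pools not overlapping) and the 1 with the largest in the other, with genes that did not pass. Some lower genes, such as sar1ab and SEC22C, were given library values besides, and the rest are given by their changes. In each pathway and collagen list the 2 called genes with the largest change and a mean of at least 5 CPM were named, with HSP90B1, and marker lists are given by their counts and sums. List symbols that lacked an exact match were matched without their paralog suffix, and every gene of that symbol entered the list. Alternatives were DESeq2, its size factors, library totals, no filter, a stricter filter, legacy estimation, a replicate block and each library left out. On simulated counts in which few genes changed, p-values of unchanged genes were spread about evenly and large changes were recovered. These counts were drawn with the spread fitted to the data, and far fewer genes changed than were called here. The share of false calls among the simulated calls exceeded the threshold, so an adjusted p close to the threshold deserves caution. That share cannot be carried over to the data. The software was edgeR 4.0.16 with limma 3.58.1 and DESeq2 1.42.0 in R 4.3.3, and Python 3.11.15 with numpy 2.4.6, pandas 2.3.3 and matplotlib 3.10.9. No sequences, gene lengths or coordinates were used here.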

Additional observations from a re-analysis of the deposited data

How the results depend on the processing

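All 60 called members kept their direction in every alternative in which they were tested, and 55 kept their call in each of these; SEC22A, TMED4, pdia8, creb3l3b and the SSRP1 gene ENSDARG00000016994 lost theirs in some. The count of members that rose was 51 to 58 over all alternatives. The count that fell was 6 in the main fit, 5 with DESeq2 and 4 with library totals alone, and it was smaller than 6 with each library left out. A fit with a library left out has 1 pool in a group, so its calls do not measure the spread of that group. Counts of rises of at least 2-fold are those of the main fit, and some of these members fell short of 2-fold in an alternative. With a minimum of 10 CPM in 2 libraries 12466 genes were tested and log2 fold changes shifted by a median of -0.109. Among all genes 4384 then rose and 4461 fell, and 3 members fell. Of the members that fell in the main fit, sar1ab, TMED4, SEC22C and pdia2 lay under that minimum and were not tested. SEC23B and creb3l3b kept their calls, and creb3l3l was added. For all genes, how much of the change in counts comes from the genes left out and how much from the shift was not tested. Under that minimum 1 COPII gene, 0 genes of cargo receptors and retrieval and 0 ER folding genes fell. Falls were called for 2 transcription factors, 4 genes of the unfolded protein response and degradation list and 1 of vesicle tethering. With library totals alone 5 COPII genes rose, and 1 gene of cargo receptors and retrieval, 0 transcription factors and 1 gene of the unfolded protein response list fell. The shift of 0.21 in all genes with library totals alone accompanies these. DESeq2 called 1 gene of cargo receptors and retrieval lower, which was SEC22C. With a library left out, 1 to 2 cargo receptors fell, 0 to 1 transcription factors fell, and of the unfolded protein response list 5 to 8 rose and 1 to 3 fell; the cause was not tested. Signs turned only for genes that did not pass: SEC61G (0.10 with library totals alone, and -0.33 to 0.15 with a library left out), XBP1 (-0.00449 with the 10 CPM minimum, and -0.011 to 0.27 with a library left out) and creb3l3l (0.019 with library totals alone, and called lower at -0.30 with the 10 CPM minimum).

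The labels number the pools of both groups alike and do not say what a number marks. The deviations of same-numbered pools had a correlation of -0.0314 over 25594 genes. This value cannot show whether same-numbered pools shared a preparation that touched some genes. With the replicate block 7473 genes rose and 7623 fell, and 54 members rose and 6 fell; the block changed no member's call. Depth limits low genes most, and tmed6, pdia2 and pdia8 rest on few counts.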
